A study of Mus musculus with 6 samples.

Results

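The elongases Elovl1 to Elovl7 were followed in mouse subcutaneous white fat (IWAT in the sample titles), in which the transcription factor YY1 had been targeted. The members were the probe sets that the platform's annotation assigned to these 7 symbols alone, 13 probe sets among 22690, and the genes were 7 of the 12394 genes measured. YY1bKO mice carried floxed alleles of Yy1 together with Ucp1Cre, a Cre recombinase under Ucp1 regulatory sequences, which act mainly in brown and beige adipocytes. Control mice carried the floxed alleles without that transgene. All mice were of mixed C57BL6 and 129 stock, aged 8 weeks, and high fat feeding had lasted 2 weeks. Each group had 3 Affymetrix arrays, a number that limits precision throughout. Since no label says that replicates came from separate animals, p-values here reflect the spread among arrays, part of which may be technical. No group with Cre but without floxed alleles was included, so effects of the transgene and of the deletion cannot be told apart.

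Elongases sit in the endoplasmic reticulum membrane and carry out the condensation that opens each round of fatty acid lengthening. That step sets the pace of the cycle, and a ketoacyl reductase, a dehydratase and an enoyl reductase shared by all chains complete it. ELOVL6 lengthens the palmitate made by fatty acid synthase, while ELOVL1, ELOVL3 and ELOVL7 act on longer saturated and monounsaturated chains. ELOVL2 and ELOVL5 act on polyunsaturated chains, and ELOVL4 makes the very longest chains, in retina and skin among other tissues. In mice Elovl3 is known for its induction by cold in brown fat and for its expression in the sebaceous glands of skin.

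Values are intensities on a linear scale after RMA, which equalises the distributions of the arrays, and differences are YY1bKO minus control on the log2(intensity + 1) scale. That scale understates the change of dim probe sets, and the lower quartile of intensities was 29.9 to 31.7 on each array. A difference was called when its limma p, adjusted by the Benjamini-Hochberg method over all genes, was under 0.05. Yy1 (1422569_at) had intensities of 1118.1, 1357.5 and 1179.3 in YY1bKO fat, against 1287.5, 1469.7 and 1568.2 in control fat. Its log2 difference of -0.24 ± 0.12 (SE, n = 3 per group; limma adjusted p = 0.574) did not pass, in whole tissue where only Ucp1-expressing cells would be recombined. The labels do not say whether that probe set lies in the deleted part, so it checks them only in part. With the mean of all Yy1 probe sets the difference was smaller, at -0.15 ± 0.09 (SE, limma adjusted p = 0.673). The adipocyte hormone Adipoq had intensities from 18130.6 to 20044.7 in YY1bKO and from 15948.4 to 19325.2 in control arrays. Markers of other tissues stood apart in single arrays. Skin keratinocyte and sebocyte genes were high in control replicate 2, and B cell genes were low in replicate 1 of both groups. Most skeletal muscle genes were highest in YY1bKO replicate 1. The muscle gene Acta1 instead had 1569.2, 524.3 and 1572.0 in YY1bKO fat, against 312.7, 181.0 and 297.7 in control fat, without overlap.

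None of the 7 elongases passed the threshold (0 of 7, limma), where 4 of 12394 genes did (0.0323%). At an unadjusted p under 0.05 the count was 1 of 7, Elovl3, against 10.4% of all genes in either direction (8.45% higher and 1.99% lower). Over all probe sets, 0 of the 13 passed, against 0.0486%, and at an unadjusted p under 0.05 there were 3 of 13 (Elovl3 and both of Elovl6), against 9.52%. Elovl3, Elovl6, Elovl2 and Elovl5 had positive differences (4 of 7, against 51% of all genes), and Elovl4, Elovl7 and Elovl1 negative ones. The median difference of the 7 was 0.01, against 0.00 (log2) over all genes. Arrays of the groups did not overlap in 2 members, Elovl3 and Elovl7, which compares with 16.5% of all genes. The members therefore showed no common direction, and they are described below by the chains they act on.

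**Figure D1:**
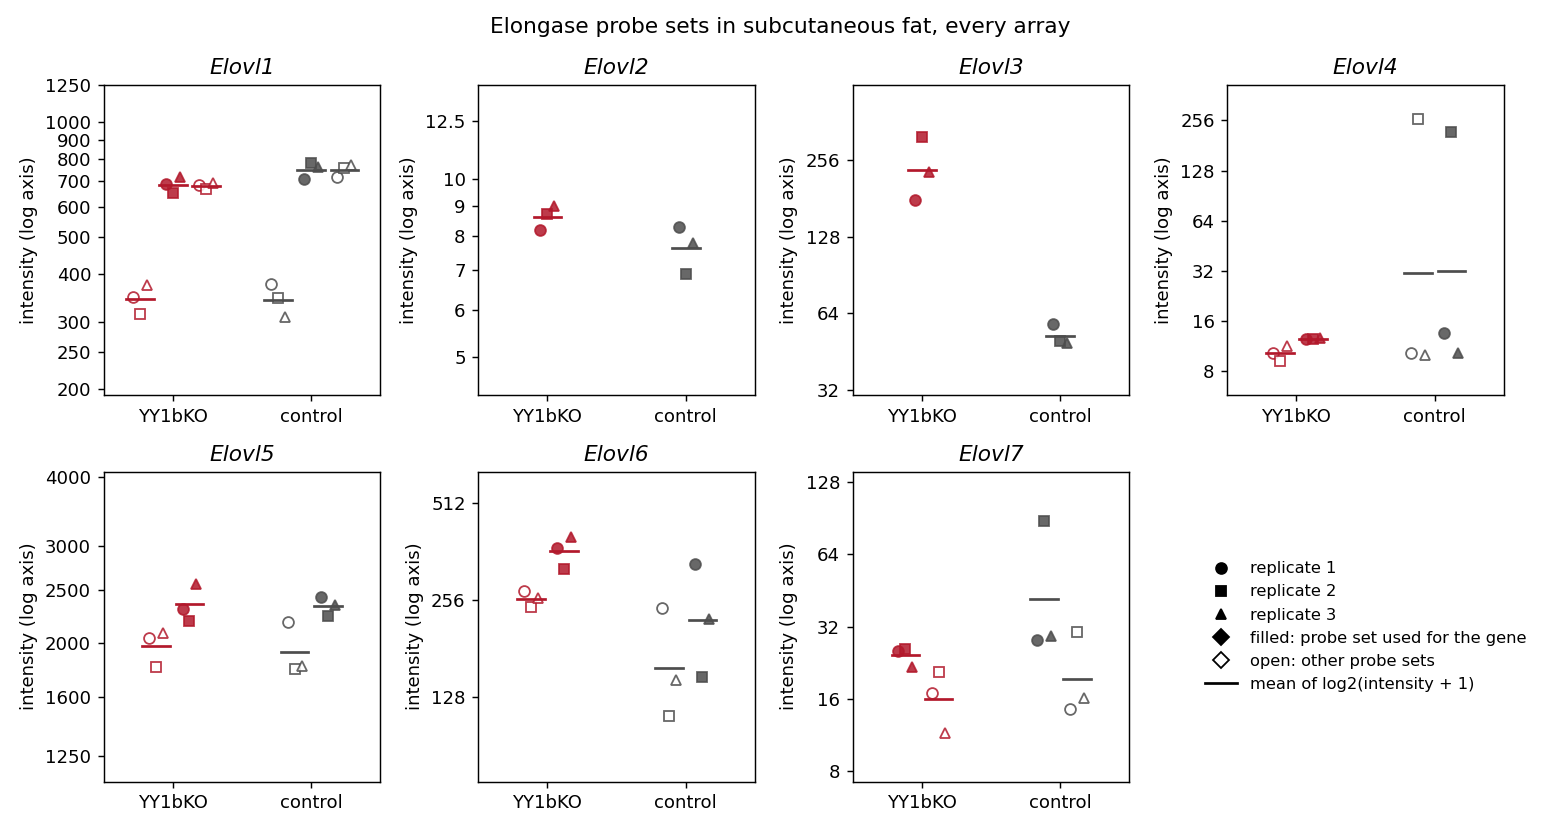
Intensity (log axis) of each elongase probe set on the 3 YY1bKO arrays (red, left) and the 3 control arrays (grey, right); symbols give the replicate, filled symbols the probe set used for the gene and bars the mean of log2(intensity + 1). Elovl3 is higher on all 3 YY1bKO arrays, and Elovl4 stands at 218 and 261.2 on control replicate 2 alone.

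Among the elongases of saturated and monounsaturated chains, Elovl3 had by far the highest YY1bKO level relative to control. Its probe set (1420722_at) gave intensities of 178.7, 315.3 and 229.1 in YY1bKO fat, against 58.2, 49.7 and 48.9 in control fat. Every YY1bKO array lay above every control array, and the lowest YY1bKO value was that of replicate 1. The mean intensity was 241.0 ± 69.1 in YY1bKO and 52.3 ± 5.15 in control arrays (SD, n = 3 each). The log2 difference was 2.15 ± 0.22 (SE; 95% confidence interval 1.62 to 2.67), a 4.44-fold higher value that was the 5th largest positive difference of the 12394 genes. Its limma adjusted p of 0.0539 missed the threshold, and over the 19 alternatives it ran from 0.0484 to 0.387. It passed in 2 of them, when the dimmer probe sets (under the 50th percentile) were dropped (0.0484) and with robust variance moderation (0.0495). The filter is no independent support, because Elovl3 cleared it through its YY1bKO arrays, its control intensities lying below the median of every array (123.15 to 130.35).

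The rank of Elovl3 by p was 12 among all genes. Leaving out single arrays gave differences from 1.94 (without YY1bKO replicate 2) to 2.35 (without YY1bKO replicate 1). The thermogenic adipocyte list, in which Elovl3 was not counted, showed the same order of groups. That list was chosen with earlier results of these data known. It holds Ucp1 and Fabp3, the genes with the smallest p of all, so the shared order is no independent support. All 8 of its measured genes were higher in YY1bKO fat, against 51% of all genes. At an unadjusted limma p under 0.05, 6 of the 8 were higher, against 8.45% of all genes. List levels are the mean log2 value relative to each gene's mean over the arrays. They ran from 1.09 to 1.16 in YY1bKO and from -1.48 to -0.92 in control arrays. Of these 8 genes 2 rose past the threshold by limma, against 0.0323% of all genes. They were Ucp1 (log2 difference 5.25 ± 0.14 SE, adjusted p = 1.91e-04) and Fabp3, a fatty acid binding protein (5.79 ± 0.30, adjusted p = 0.00638). Cox7a1 and Cox8b, cytochrome oxidase subunits of heart, muscle and brown fat, had differences of 2.39 and 1.57 that did not pass (adjusted p = 0.101 and 0.173). Cidea, a lipid droplet protein, and Dio2, the thyroid hormone deiodinase, had 1.23 and 0.07 (adjusted p = 0.555 and 0.868). Dio2 was dim, at 32.4 to 41.9 over all arrays, near their lower quartile, so its value says little of the transcript. Cidea had its highest intensity on control replicate 2 (2067.8, against 457.4 and 462.7 in the other control arrays and 1683.1 to 1931.4 in YY1bKO arrays). In bulk tissue, more cells of a type and more transcript per cell cannot be told apart, for Elovl3 or for these genes.

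Elovl3 is also a sebaceous gland gene, and its level was set beside the skin markers. On control replicate 2 the keratinocyte list stood at 3.16 and the sebocyte list at the same 3.16, with Elovl3 at an intensity of 49.7, between the other control values of 58.2 and 48.9. Without that array the Elovl3 difference was 2.12. The skeletal muscle list was highest on YY1bKO replicate 1 (2.58), where Elovl3 was the lowest of the 3 YY1bKO arrays. Of the 9 listed sebocyte genes 4 were measured here (Krt79, Far1, Mc5r and Fa2h), all 4 with negative differences. Awat1, Awat2, Dgat2l6, Far2 and Soat1 were not measured. Scd3, a skin and sebaceous gland gene outside that list, had 49.9, 50.6 and 51.9 in YY1bKO fat, against 21.5, 35.3 and 19.9 in control fat. The part of sebaceous cells in the Elovl3 values was not tested.

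Elovl6, the elongase of palmitate and a target of the lipogenic factor SREBP-1c, was higher in YY1bKO fat on average, with groups that overlapped. Its brighter probe set (1417404_at) gave 373.4, 320.8 and 401.5 in YY1bKO fat, against 332.0, 147.5 and 223.7 in control fat. Control replicate 1 lay within the YY1bKO range and control replicate 2 was the lowest of the 6. The log2 difference was 0.71 ± 0.29 (SE; 95% confidence interval -0.01 to 1.42; 1.63-fold; limma adjusted p = 0.482). The other probe set (1417403_at) gave 274.1, 243.2 and 259.6 in YY1bKO fat, against 241.4, 111.9 and 145.2 in control fat, where the groups did not overlap. Its log2 difference was 0.71 ± 0.27 (SE, adjusted p = 0.491 over all probe sets). The probe sets thus gave the same size and the same order of control arrays. Single arrays moved the Elovl6 difference, which was 0.41 without control replicate 2 and 1.00 without control replicate 1 (limma adjusted p = 0.594 and 0.143). Control replicate 2, where Elovl6 was lowest, had the lowest white adipocyte list level as well (-0.31, against -0.23 and 0.04 in the other control arrays and 0.07 to 0.21 in YY1bKO arrays). The part of these markers in the Elovl6 difference was not tested.

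Since YY1 binds DNA, the 250 bases before the annotated starts were searched in RefSeq's promoter windows (GRCm38.p6), which matched 6 of the 7 genes in 8 windows (all but Elovl3). The motifs were the YY1 core CCATNTT and the nuclear receptor element AGGTCA, each on both strands and with no overlap between them. The YY1 core was in 0 of the 8 windows, against 12.4% of all 32851 windows, and AGGTCA was in 2 of 8, against 14%. So few windows cannot show that a share differs from that of all windows. The 8 windows had 55.6 to 87.2% GC, against a mean of 53.2% over all windows, and those of Elovl2 overlap each other. The window of Elovl6 is shown because it belongs to the member with the highest difference among those matched and holds AGGTCA. It lies at chr3:129532136-129532385 on the plus strand, and capitals mark that element, on the minus strand with its first base at position -193 from the start.
Elovl6: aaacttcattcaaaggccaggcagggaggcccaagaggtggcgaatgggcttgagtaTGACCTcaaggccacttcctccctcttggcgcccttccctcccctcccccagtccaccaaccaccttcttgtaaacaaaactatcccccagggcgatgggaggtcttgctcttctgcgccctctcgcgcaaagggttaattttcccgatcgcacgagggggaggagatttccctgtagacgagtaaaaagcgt
The other match was in a window of Elovl1. A match describes letters in a window, and no binding was measured in these samples.

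Elovl1, a broadly expressed elongase of saturated and monounsaturated very long chains, had differences close to 0. Its brightest probe set (1455994_x_at) gave 690.2, 652.6 and 718.1 in YY1bKO fat, against 709.6, 781.7 and 763.2 in control fat. The groups overlapped by YY1bKO replicate 3 and control replicate 1. The log2 difference was -0.13 ± 0.09 (SE; 95% confidence interval -0.35 to 0.09; limma adjusted p = 0.698). The other x_at probe set (1456530_x_at) gave -0.14 ± 0.08, with all YY1bKO arrays lower (667.1 to 695.0, against 718.7 to 774.5 in control arrays). The third (1425676_a_at) gave 0.01 ± 0.12. In Affymetrix naming, x_at marks probe sets that may also detect other sequences, so the a_at probe set is given beside them.

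Elovl7, an elongase of saturated very long chains, was near the lower quartile of the arrays. Its brighter probe set (1424097_at) gave 25.4, 25.8 and 21.8 in YY1bKO fat, against 28.0, 88.0 and 29.3 in control fat. All YY1bKO values lay below all control values, by a small margin except for control replicate 2. The log2 difference was -0.76 ± 0.44 (SE; 95% confidence interval -1.83 to 0.31; limma adjusted p = 0.627), and without control replicate 2 it was -0.23 ± 0.12. The dimmer probe set (1424098_at) gave 16.9, 20.8 and 11.6 in YY1bKO fat, against 14.6, 30.4 and 16.1 in control fat. Its difference was -0.26 ± 0.32 (SE), and 0.06 without control replicate 2.

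**Figure D2:**
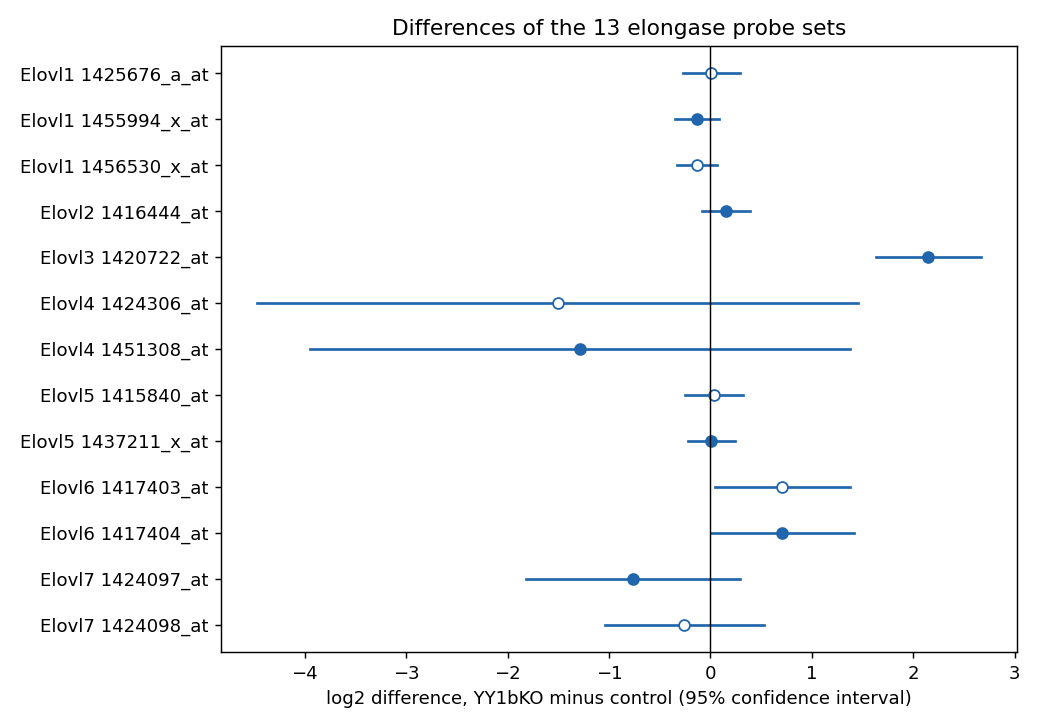
Log2 difference, YY1bKO minus control, of each of the 13 elongase probe sets with its 95% confidence interval from the fit over all probe sets; filled points are the probe sets used for the genes. The interval of Elovl3 (1.63 to 2.67) lies farthest from 0, and those of both Elovl4 probe sets are the widest.

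Elovl4, which makes the longest chains and is needed for the skin's water barrier in mice, was seen on 1 array only. The brighter probe set by log2 mean (1451308_at) gave 12.5, 12.5 and 12.6 in YY1bKO fat, against 13.6, 218.0 and 10.3 in control fat. The other (1424306_at) gave 10.3, 9.2 and 11.3 in YY1bKO fat, against 10.3, 261.2 and 10 in control fat. On both probe sets control replicate 2 was high and the other 5 arrays lay below the lower quartile of intensities. The SD of the control arrays, 2.37 (log2), was larger than that of 99.3% of genes. The log2 difference of -1.29 ± 1.11 (SE; limma adjusted p = 0.749) came from that array, since without control replicate 2 it was 0.07 ± 0.14.

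Control replicate 2 was the array with the highest skin and gland markers. Krt14, the keratin of basal keratinocytes, had intensities of 24.6, 31.6 and 28.0 in YY1bKO fat, against 37.0, 5585.1 and 26.0 in control fat. Krt79, a keratin of sebaceous ducts, had 240.7, 189.9 and 253.9 in YY1bKO fat, against 433.0, 7234.7 and 233.0 in control fat. Fa2h, the fatty acid hydroxylase of skin and myelin sphingolipids, had 80.0, 68.0 and 68.4 in YY1bKO fat, against 66.8, 2962.9 and 60.2 in control fat. Levels of the keratinocyte list (11 of 12 genes measured) ran from -0.70 to -0.47 in YY1bKO and from -0.73 to 3.16 in control arrays. Those of the sebocyte list (4 of 9 measured) ran from -0.75 to -0.62 in YY1bKO and from -0.62 to 3.16 in control arrays. The mammary epithelium list (14 of 14 measured) ran from -0.53 to 0.26 in YY1bKO and from -0.51 to 1.49 in control arrays. Its epithelial genes Epcam, Krt8 and Krt18 had intensities of 1860.6, 699.1 and 185.4 on control replicate 2. On the other arrays they reached at most 79.4, 76.2 and 88.3. Krt19 and the milk protein genes Csn2, Csn3, Lalba and Wap were not at their highest on control replicate 2. These milk protein genes were dim, at 10.5 to 53.9 over all arrays. The keratin Krt1 and the cornified layer gene Flg were not high on that array either, with log2 values of 4.22 and 3.47. Both lay below the lower quartile of intensities on every array. Krt10 and Lor of the keratinocyte list were high on control replicate 2, at 337.5 (77 to 137.9 on the other arrays) and 238.5 (23.2 to 25.9). None of these lists had a member past the threshold by limma, and 10 of 11 keratinocyte and 4 of 4 sebocyte genes had negative differences. Without control replicate 2 the list medians were 0.04 (keratinocyte, -1.09 with it) and -0.11 (sebocyte, -1.57 with it), and the mammary median was 0.20 (-0.10 with it). The part of such cells in the Elovl4 and Elovl7 values was not tested.

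**Figure D3:**
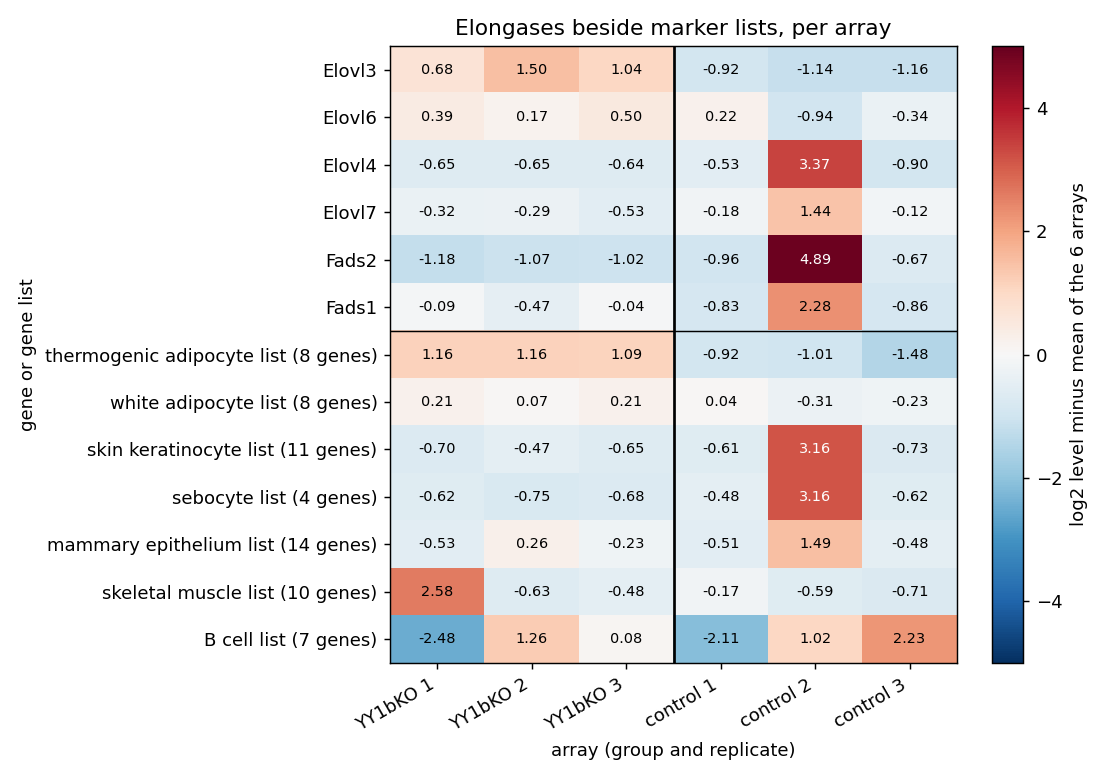
Log2 level of 4 elongases, 2 desaturases and 7 marker lists on each array, relative to the mean of the 6 arrays (colour and printed value; YY1bKO arrays left). Elovl4, Elovl7, Fads2 and the skin lists peak on control replicate 2, while Elovl3 follows the groups, as does the thermogenic list.

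Neither elongase of polyunsaturated chains differed detectably between the groups. Elovl5, which lengthens the products of Fads2 and Fads1, gave 2303.4, 2190.4 and 2554.7 in YY1bKO fat, against 2421.6, 2237.8 and 2339.8 in control fat (1437211_x_at). The control range lay within the YY1bKO range. The log2 difference was 0.01 ± 0.10 (SE; limma adjusted p = 0.986), with a 95% confidence interval of -0.23 to 0.24. The other probe set (1415840_at) gave 0.04 ± 0.12, from 2043.6, 1809.0 and 2085.9 in YY1bKO fat, against 2182.1, 1795.2 and 1817.9 in control fat. Elovl2, an elongase of liver, testis and retina, was at the floor of the arrays. It gave 8.2, 8.7 and 9.0 in YY1bKO fat, against 8.3, 6.9 and 7.8 in control fat (1416444_at), lower than nearly all probe sets of the array. Its log2 difference of 0.16 ± 0.10 (SE; limma adjusted p = 0.662) cannot be read as a difference in transcript at that brightness.

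**Figure D4:**
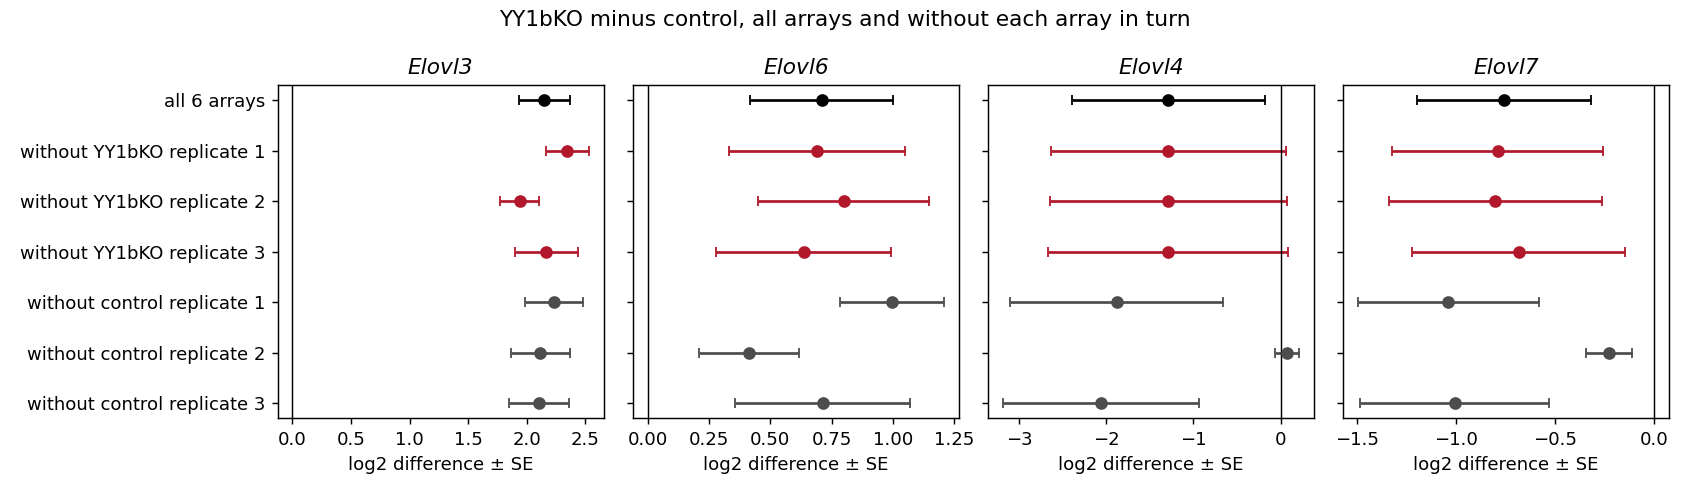
Log2 difference ± SE, YY1bKO minus control, of Elovl3, Elovl6, Elovl4 and Elovl7 with all 6 arrays (black) and without each YY1bKO array (red) or control array (grey) in turn. Elovl3 stays between 1.94 and 2.35, while without control replicate 2 Elovl4 is at 0.07 and Elovl7 at -0.23.

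The log2 ratio of Elovl3 to each other member within an array removes differences between arrays that both share. Among the members above the lower quartile, the difference of these ratios, YY1bKO minus control, was 1.44 for Elovl6, 2.14 for Elovl5 and 2.28 for Elovl1, and the arrays of the groups did not overlap in any of the 3. Ratios to Elovl2, Elovl4 and Elovl7 are not read, since these 3 members lay below the lower quartile in every YY1bKO array. The exact 2-sided permutation test, run on all 6 ratios, gave p = 0.1 for each (Benjamini-Hochberg adjusted p = 0.1), the smallest that 3 against 3 arrays allow, so it could not reach 0.05. Elovl3 itself had groups that did not overlap, and these ratios largely restate that difference rather than add a separate result.

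The genes whose arrays were most like those of Elovl3 were found by the root mean square difference of log2 values over the 6 arrays, each gene relative to its own mean. They were Cox7a1 (0.36), Pdk4, a kinase that shuts off pyruvate dehydrogenase (0.37), Vnn1, a pantetheinase (0.39), Gsta3, a glutathione transferase (0.44), and Oplah, the oxoprolinase (0.45). Their log2 differences lay between 1.49 (Gsta3) and 2.39 (Cox7a1), with limma adjusted p from 0.0539 to 0.147. The genes nearest to Elovl6 were Gpd1, the cytosolic glycerol phosphate dehydrogenase (0.087), Sec16b (0.089), Pygl, the liver form of glycogen phosphorylase (0.098), Cmbl (0.104) and Wdpcp (0.109). Gpd1 gave 3644.4, 2825.5 and 3684.0 in YY1bKO fat, against 2876.5, 1300.4 and 1788.5 in control fat, with control replicate 2 the lowest, as for Elovl6. These values describe likeness over 6 arrays in 2 groups and carry no test.

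The enzymes that complete each elongation cycle showed no difference past the threshold. Of the 6 measured (Tecrl was not), 3 were higher and 3 lower in YY1bKO fat, with a median difference of 0.00. By limma 0 passed, also at an unadjusted p under 0.05, against 10.4% of all genes at that p. Hsd17b12, the ketoacyl reductase, had intensities of 4543.4, 4273.8 and 4723.1 in YY1bKO fat, against 4264.1, 9971.5 and 2665.8 in control fat, again highest on control replicate 2. The dehydratases Hacd3, Hacd4, Hacd2 and Hacd1 had log2 differences of -0.22, 0.25, 0.01 and -0.004, and the enoyl reductase Tecr had 0.03 (adjusted p from 0.747 to 0.996).

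Among desaturases and their electron donors 4 of 9 were higher and 5 lower, with a median of -0.06. By limma 0 passed the threshold and 1 was higher at an unadjusted p under 0.05, against 8.45% of all genes. Scd3, a stearoyl-CoA desaturase of skin and sebaceous gland, was the gene of that list with the smallest p. Its log2 values were 5.67, 5.69 and 5.73 in YY1bKO fat, against 4.49, 5.18 and 4.39 in control fat (difference 1.01 ± 0.22 SE, limma adjusted p = 0.231). Scd1, the desaturase that acts on the product of Elovl6, had a difference of 0.09 ± 0.09 (adjusted p = 0.781), and Scd2 had -0.67 ± 0.32 (0.555). Fads2, which makes the substrate of Elovl5, had intensities of 63.1, 67.9 and 70.6 in YY1bKO fat, against 73.6, 4302.2 and 89.7 in control fat. Fads1 had 459.3, 353.4 and 474.0 in YY1bKO fat, against 275.2, 2385.7 and 269.3 in control fat. Both were highest on control replicate 2, as Elovl4 was, and their log2 differences of -2.17 and -0.40 did not pass (adjusted p = 0.701 and 0.905).

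Genes of fatty acid synthesis, which supplies palmitate to Elovl6, were 5 higher and 4 lower among 9, with a median of 0.00. Without probe sets below the 25th percentile that median was 0.12. By limma 0 passed the threshold and 2 were higher at an unadjusted p under 0.05, against 8.45% of all genes. These were Thrsp, a lipogenic protein of fat and liver, and Acacb, the acetyl-CoA carboxylase at mitochondria. Thrsp had a log2 difference of 0.85 ± 0.11 (adjusted p = 0.129), with all YY1bKO values (12.56 to 12.85) above all control values (11.75 to 11.97). Acacb had 1.46 ± 0.48 (0.380). Fasn, fatty acid synthase, had 0.38 ± 0.20 (0.593), Acly -0.28 ± 0.34 (0.825) and Me1, the malic enzyme that supplies NADPH, -0.39 ± 0.29 (0.710).

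Downstream users of very long chains were likewise mixed. Of 7 ceramide synthesis genes 3 were higher and 4 lower (median -0.03). By limma 0 passed the threshold and 1 was higher at an unadjusted p under 0.05, against 8.45% of all genes. That was Cers2, the ceramide synthase for very long acyl chains, at 0.40 ± 0.12 (adjusted p = 0.339). Of 10 genes of peroxisomal oxidation of such chains 5 were higher and 5 lower (median 0.04). Here 0 passed the threshold and 2 were higher at an unadjusted p under 0.05, against the same 8.45% of all genes. These were Ehhadh, the bifunctional enzyme (1.01 ± 0.22, adjusted p = 0.244), and Acaa1b, a thiolase (0.42 ± 0.14, 0.401). Acox2, an oxidase of branched chains and bile acid precursors, had intensities of 20.5, 19.4 and 20.2 in YY1bKO fat, against 23.5, 169.7 and 20.6 in control fat, high on control replicate 2 as well.

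**Figure D5:**
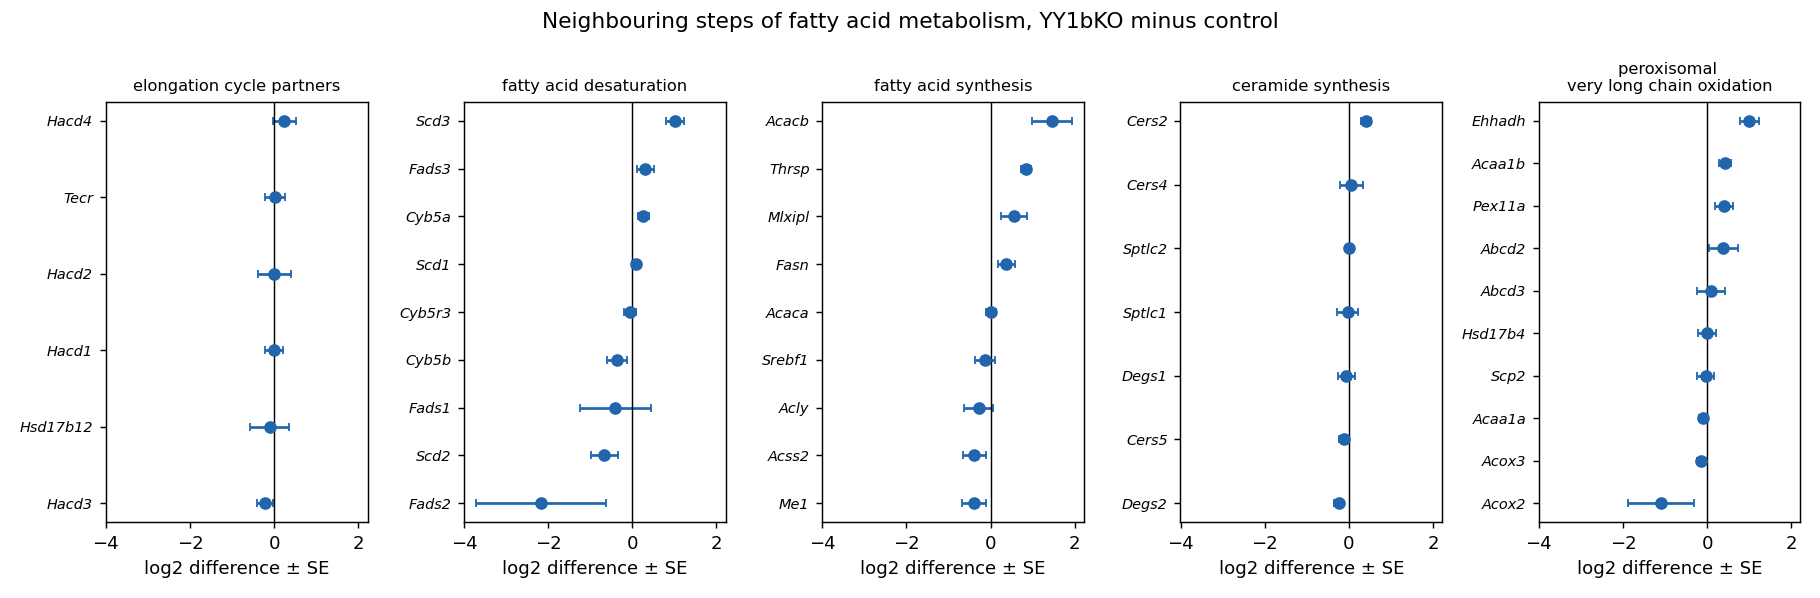
Log2 difference ± SE, YY1bKO minus control, of the measured genes in 5 lists around the elongases. No gene of these lists passed the threshold; Acacb (1.46), Scd3 (1.01) and Ehhadh (1.01) had the highest values and Fads2 (-2.17) the lowest.

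Factors known to act on elongase genes were also measured. Of 11, 6 were higher and 5 lower (median 0.18, and -0.02 without YY1bKO replicate 1), with 0 past the threshold by limma. At an unadjusted p under 0.05, 3 were higher (8.45% of all genes) and 1 was lower (1.99% of all genes). Per2, a clock component, had a log2 difference of 0.71 ± 0.19 (adjusted p = 0.295) and Nr1h3, the liver X receptor alpha, had 0.62 ± 0.17 (0.303). Ppara, a nuclear receptor for fatty acids present in brown fat, had log2 values of 8.25, 7.80 and 7.76 in YY1bKO fat, against 6.71, 7.80 and 6.41 in control fat. Its difference was 0.97 ± 0.37 (0.453), and control replicate 2 reached the YY1bKO range. Srebf1, the factor upstream of Elovl6, had -0.14 ± 0.24 (0.882), Mlx -0.28 ± 0.11 (0.471) and Srebf2 -0.71 ± 0.33 (0.527).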

How the data were processed

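Total RNA of subcutaneous white fat was extracted with Trizol and made into biotin-labelled RNA for Affymetrix arrays, according to the labels. The authors deposited 1 intensity per probe set and array, made with RMA per the submitters' processing notes, which name no version. Values (5.4 to 25730.1, array medians 123.15 to 130.35) show a linear scale, and log2 was taken here from the deposited intensities. Groups were taken from the sample titles. Spearman correlations between arrays ran from 0.946 to 0.993, so no array was a duplicate.

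Of the 22690 probe sets, 20393 carried 1 gene symbol, 691 several and 1606 none in the platform's annotation, and 20364 matched RefSeq gene identifiers (0 symbols changed). A gene was represented by its probe set with the highest mean of log2(intensity + 1) (pseudocount 1), which gave 12394 genes. These were fitted with limma 3.58.1 in R 4.3.3 (lmFit, eBayes, 6.11 total degrees of freedom, 2-sided p, Benjamini-Hochberg adjustment, threshold 0.05), with no filter on dim probe sets. Other probe sets of a member were fitted over all 22626 probe sets that are not Affymetrix controls. The fit was tested on simulated data. Lists are described by counts and medians, with no set test. Named genes were the members, Yy1, Ucp1, genes of each list with the smallest p (up to 6) or defining markers, and the 5 most similar to Elovl3 and to Elovl6. Members of lists outside that rule (Scd1, Fads1, Acly, Srebf1, Dio2 and Flg) were named after their values were seen. Members and lists were chosen with earlier results of these data known. Alternatives were other pseudocounts, filters, scalings, gene summaries, eBayes options, array weights, a replicate block and leaving out arrays.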

Additional observations from a re-analysis of the deposited data

How the results depend on the processing

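The number of arrays limits every value, and probe sets near the floor (Elovl2, Elovl4, Elovl7) carry little information on transcript level. The differences of Elovl1, Elovl2, Elovl3, Elovl6 and Elovl7 kept their sign in all alternatives that hold them; filters on dim probe sets dropped Elovl2 (25th percentile) or Elovl2, Elovl4 and Elovl7 (50th). Elovl3 passed the threshold without probe sets below the 50th percentile (2.15, limma adjusted p = 0.0484) and with robust moderation (2.15, 0.0495), and missed it in the other 17 alternatives; the filter kept Elovl3 only through its YY1bKO arrays, so that pass depends on the difference itself; its lowest value was 1.88, at pseudocount 16, where a smaller number follows from the larger pseudocount. Without each array in turn Elovl4 ran from -2.06 to 0.07 (0.075 without control replicate 2) and Elovl5 from -0.054 to 0.057. Without control replicate 2 and YY1bKO replicate 1 together, Elovl4 was 0.077 and Elovl5 -0.009, and Elovl5 was -0.022 after quantile normalization. Of the other probe sets, chosen for this after seeing the data, 1425676_a_at of Elovl1 was -0.001 after quantile normalization and ran from -0.065 to 0.077 without single arrays. Likewise 1424306_at of Elovl4 ran from -2.277 to 0.011 (0.007 without both arrays), 1415840_at of Elovl5 from -0.012 to 0.129 (-0.036), and 1424098_at of Elovl7 from -0.446 to 0.058 (0.021). The cause was not tested beyond the arrays left out. The 4 genes past the threshold became 9 at pseudocount 16, 9 without probe sets below the 50th percentile, 12 with robust moderation, 9 with array weights, 11 probe sets with every probe set tested, 1 with the replicate block and 1 without both arrays, and from 1 to 5 without single arrays. Whether replicate numbers pair the arrays cannot be decided from 3 arrays per group. Correlations of same-numbered deviations were 0.607 (replicate 1), 0.097 and 0.031, the first being the highest of any pairing. YY1bKO replicate 2 correlated best with control replicate 3 (0.598). With the replicate block the Elovl3 difference was 2.15 (limma adjusted p = 0.242) and 0 members passed. The ratios of Elovl3 to Elovl6, Elovl5 and Elovl1 ran from 1.14 to 1.70, from 1.87 to 2.32 and from 2.01 to 2.48 over both other pseudocounts and without each array; their test could not pass the threshold, so this says nothing of stability.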

Other observations

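Other marker lists were measured in the same arrays. T cell genes (6 measured) were lower in 6 of 6, with list levels from -1.30 to 0.65 in YY1bKO and from -1.18 to 1.30 in control arrays, and B cell genes (7 measured) were lower in 7 of 7, with levels from -2.48 to 1.26 in YY1bKO and from -2.11 to 2.23 in control arrays. Macrophage genes were lower in 4 of 6 (median -0.10) and endothelial genes higher in 6 of 6 (median 0.37). White adipocyte genes were higher in 7 of 8 (median 0.23), and skeletal muscle genes in 10 of 10 (median 0.96), with levels from -0.63 to 2.58 in YY1bKO and from -0.71 to -0.17 in control arrays. By limma 0 members of these 6 lists passed the threshold. At an unadjusted p under 0.05, 3 of 8 white adipocyte, 1 of 6 endothelial and 1 of 10 skeletal muscle genes were higher, against 8.45% of all genes. Single arrays turned some of these medians. Without YY1bKO replicate 1 the muscle median was -0.28, the B cell median 0.28 (-0.70 with it) and the T cell median 0.04 (-0.44 with it). Without control replicate 3 the B cell median was 0.31, the T cell median 0.03 and the macrophage median 0.00, and without control replicate 1 the macrophage median was 0.07.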
